A study of Mus musculus with 4 samples.

Results

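The mitochondrial genome supplies a small set of proteins to the respiratory chain, and 10 of its 13 protein-coding genes, of 33696 genes in the count tables, are described here: mt-Nd1, mt-Nd2, mt-Nd3, mt-Nd4 and mt-Nd5 of complex I, mt-Cytb of complex III, mt-Co1, mt-Co2 and mt-Co3 of complex IV, and mt-Atp6 of complex V. They were chosen by symbol, with earlier results on their level in these libraries known, so the levels and ratios that follow describe the libraries and were not tested. The study sampled livers of male wild-type C57BL/6J mice by image-guided fine-needle aspiration (FNA) during progression of diet-induced steatohepatitis and after dietary cholesterol was reduced. All mice ate the high-fat, high-fructose FPC diet. P-LC24 had 0.05% cholesterol and P-HC24 had 1.25% cholesterol for 24 weeks. I-LC32 had 0.05% cholesterol for 32 weeks, and I-HC32 had 1.25% cholesterol for 24 weeks followed by 0.05% for 8 weeks. Each condition was 1 library of 12 biopsies pooled from 3 mice, so no replicate error could be given, and differences in diet, mice and handling of a library cannot be told apart. Animals biopsied at week 24 went on to the later phase. Progression (Prog) stands for P-HC24 against P-LC24, and Intervention (Int) for I-HC32 against I-LC32. Where 4 values stand in a row without names, they are those of the low and the high cholesterol library of week 24 and then the low and the high one of week 32.

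Mitochondrial genes are copied from both strands of a circular genome as long precursors, and most messages are released where a tRNA is cut out between them. The mature messages carry short poly(A) tails, which is why a kit that primes on poly(A) captures them. Their products are the membrane-bound core of complexes that are otherwise built from nuclear-encoded subunits, and the share of mitochondrial transcripts per cell is widely used as a sign of cell quality.

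All 10 genes lie on the + strand of chrM in GRCm39. The last 30 bases of each gene are shown because the kit reads messages next to their poly(A) end. For mt-Nd5 the gene end need not be the message end, since the next gene annotated on its strand is mt-Cytb, with no tRNA on that strand between them. The same holds for mt-Atp6, where the next gene on its strand is mt-Co3. mt-Co1 overlaps mt-Ts1, a tRNA gene of the other strand, so its gene end need not be the message end either. Where the messages end was not tested. Capitals mark the stop codon or the bases left where a codon is incomplete. They are given 5′ to 3′ and come from the GRCm39 genome at the GENCODE gene ends.
mt-Nd1 (chrM:3678-3707): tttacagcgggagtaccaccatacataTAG
mt-Nd2 (chrM:4922-4951): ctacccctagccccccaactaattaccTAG
mt-Nd3 (chrM:9777-9806): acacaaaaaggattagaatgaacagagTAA
mt-Nd4 (chrM:11515-11544): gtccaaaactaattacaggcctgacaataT
mt-Nd5 (chrM:13536-13565): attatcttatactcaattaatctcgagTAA
mt-Cytb (chrM:15259-15288): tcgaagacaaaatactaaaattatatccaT
mt-Co1 (chrM:6843-6872): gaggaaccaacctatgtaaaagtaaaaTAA
mt-Co2 (chrM:7667-7696): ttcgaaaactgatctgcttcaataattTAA
mt-Co3 (chrM:9361-9390): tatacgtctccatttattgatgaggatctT
mt-Atp6 (chrM:8578-8607): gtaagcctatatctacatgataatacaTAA
The coding sequences of mt-Nd4, mt-Cytb and mt-Co3 end in a lone T, which the poly(A) tail completes to a stop codon. The others end in TAA or TAG. mt-Atp6 overlaps mt-Atp8 at its start and mt-Co3 at its end, and mt-Nd4 overlaps mt-Nd4l. Reads within those stretches match both genes, and how the counting treated them was not tested. The 3′ end of mt-Nd5 lies opposite mt-Nd6. A nuclear copy at chr1:24650616-24655269 in GRCm39 was 100% identical to all of mt-Co2, mt-Co3 and mt-Atp6, to 99.1% of mt-Nd3 and to 63.6% of mt-Nd4, and 99.8% identical to 31.3% of mt-Co1. No copy of at least 98% identity was found for mt-Cytb, mt-Nd1, mt-Nd2 or mt-Nd5. How the counting assigned reads that match both places was not tested.

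The tables held unique molecular identifier (UMI) counts for 7035, 7946, 9828 and 8389 barcodes. After the limits on UMIs, genes, mitochondrial share (at most 10%) and doublets, 4930, 6532, 6978 and 6919 cells were kept, with 38509673, 63004305, 61655713 and 77017579 UMIs. The 10 genes gave 1473748, 3184268, 3005024 and 3145598 of these UMIs. Between 12 and 29 kept barcodes were shared by any pair of libraries. Cells were sorted by raw marker counts into gates, so a marker that leads its own gate does not bear out the label. Fcer2a and Cr2 led follicular-type B cells, and Bhlhe41 and Zbtb32 were among the leading genes of B-1-type B cells. Cd4 led the CD4 T gate, Cd8b1 the CD8 T gate, and Trat1 and Ikzf2 the other T gate. Klra4 and Ncr1 were among the leading genes of NK cells, and Ace and Chil3 among those of monocytes. The macrophage gate was led by Cxcl13, Pf4 and Prg4, and Prg4 is known from peritoneal macrophages. These gates were rebuilt from counts, so they need not match the cell types of the study.

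The libraries differed in the make-up of the 10 genes in the same way in each gate for several genes. Among the UMIs of the 10 genes, P-LC24 had the highest share of mt-Co1, mt-Nd3 and mt-Nd5 and the lowest share of mt-Co3 in all 8 gates with at least 50 cells in each library. P-HC24 had the highest share of mt-Co2 and the lowest of mt-Nd4 in all 8, and I-HC32 the lowest of mt-Nd3. So 4 of 10 genes were highest and 3 lowest in the same library in each gate. Of 79 ribosomal protein genes, a set picked after these values had been seen, with shares taken among themselves, 44.3% were highest and 67.1% lowest in the same library in each gate. Beside those shares the counts do not set the 10 genes apart. The sum of the 10 genes is also given against the other low cholesterol library, while the ratios printed for single genes, gates and gene lists use the low library of the same week.

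The level was read first as the mitochondrial share of a cell. The median share of kept cells was 3.80%, 5.09%, 4.86% and 4.13%. P-LC24 and I-HC32 were thus low and P-HC24 and I-LC32 high, so the low cholesterol libraries of week 24 and week 32 lay on different sides. Cells were also ordered by type. B-1-type B cells were highest in each library, with medians of 5.13%, 6.16%, 5.88% and 4.78%. Follicular-type B cells followed lower, at 3.86%, 4.96%, 4.90% and 3.93%. CD8 T cells had 3.77%, 4.87%, 4.36% and 3.65%, close to the follicular-type cells. NK cells had 2.56%, 3.16%, 3.10% and 2.52%, and their quartiles overlapped those of monocytes, at 2.51%, 3.14%, 2.94% and 2.12%. Neutrophils, which are known for few mitochondria, were lowest at 0.217% in P-LC24 and 0.306% in P-HC24. Counted over summed UMIs, the order B-1-type B, other B, follicular-type B, CD8 T, other T and CD4 T was the same in the 4 libraries.

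**Figure D1:**
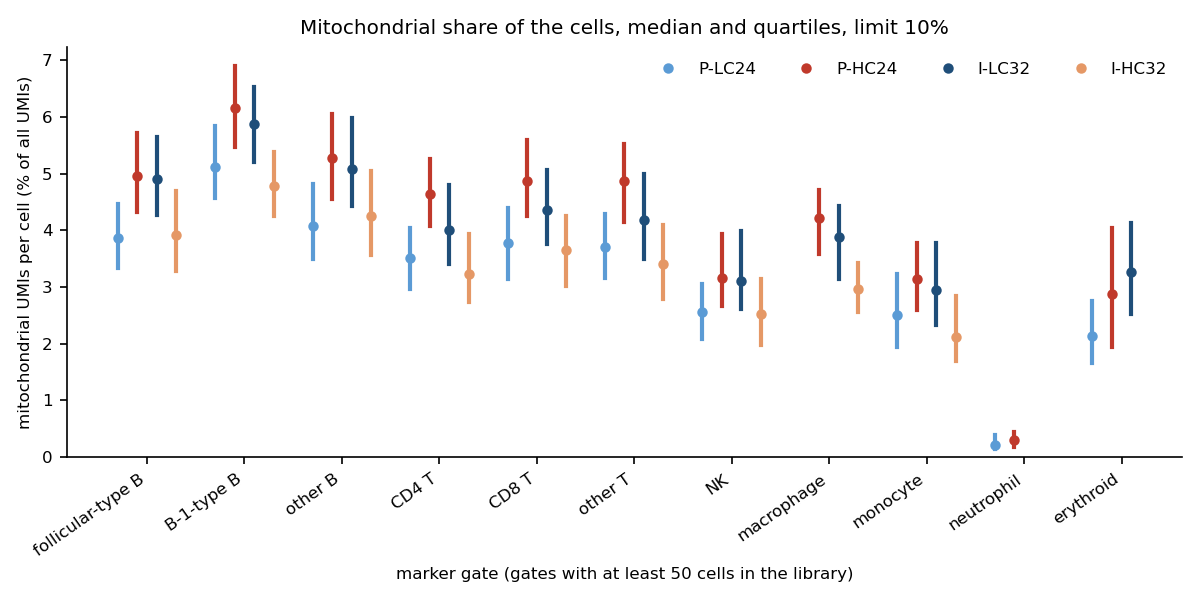
Mitochondrial UMIs per cell, in percent of all UMIs of the cell, by marker gate and library (points, medians; bars, lower to upper quartile over cells; limit of 10%). P-HC24 and I-LC32 lie above P-LC24 and I-HC32 in each gate drawn for all 4 libraries, and B-1-type B cells have the highest medians, from 4.78% to 6.16%.

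The limit of 10% removed cells unequally. Barcodes above it made up 2.82%, 4.88%, 3.39% and 10.2% of those that passed the other limits, most in I-HC32. At the limit itself, 72 barcodes of I-HC32 held 9% to 10% and 60 held 10% to 11%, against 54 and 17 in I-LC32. In I-HC32 the removed barcodes were 12.2% of the macrophage gate, 73.8% of the mast or basophil gate and 40.8% of barcodes with no gate, but 1.59% of follicular-type B cells. In I-LC32 the macrophage gate lost 4.17%. With a limit of 20% the 10 genes took 3.90%, 5.11%, 4.93% and 4.28% of UMIs, against 3.83%, 5.05%, 4.87% and 4.08% with a limit of 10%.

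In Prog, the 10 genes together went from 38270 UMIs per 1000000 (counts per 1000000 UMIs, CPM) in P-LC24 to 50541 CPM in P-HC24, a log2 ratio of 0.40 (95% exact Poisson interval 0.398 to 0.404, which covers counting error only, as do all intervals here). The median of 7069 genes compared was -0.23. In single gates the log2 ratio of the 10 genes ran from 0.25 in B-1-type B cells to 0.45 in erythroid cells, over 10 gates. With a limit of 20% the ratio was 0.39 over all kept cells, and with a limit of 5% it was 0.19. Against I-LC32, the other low cholesterol library, P-HC24 was higher by a log2 ratio of only 0.05.

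In Int, the 10 genes together stood at 48739 CPM in I-LC32 and 40843 CPM in I-HC32, a log2 ratio of -0.25 (-0.257 to -0.253), with a median of -0.01 over 7741 genes. Gates ran from -0.26 in CD8 T cells to -0.35 in monocytes, over 9 gates. The ratio was -0.20 with a limit of 20% and -0.0851 with a limit of 5%. In macrophages, with a limit of 20% in place of 10%, it went from -0.32 (median of all genes -0.14) to -0.21. Set against P-LC24 in place of I-LC32, I-HC32 was higher, by 0.09. The direction in Int thus depended on which low cholesterol library was used.

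Single genes were counted at a ratio of summed CPM of at least 1.2-fold, with no test, whereas the study used that fold together with a test over cells. In Prog, 7 of 10 were at least 1.2-fold higher, where 16.5% of all genes compared were, and 0 were lower, where 47.5% were. In Int, 4 of 10 were at least 1.2-fold lower, where 12.2% were, and 0 were higher, where 13.4% were. The Prog count was 7 with a limit of 20%, 3 with a limit of 5% and 1 against I-LC32. The Int count was 2 with a limit of 20%, 1 with a limit of 5% or with none, and 2 against P-LC24. Of the 8 genes that could be compared in each gate of Prog, 4 were at least 1.2-fold higher in all 10 gates, against 2.55% of genes. In Int, 3 of 10 were at least 1.2-fold lower in all 9 gates, against 0.405%. These genes were chosen knowing these contrasts, so nothing is read from the counts.

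**Figure D2:**
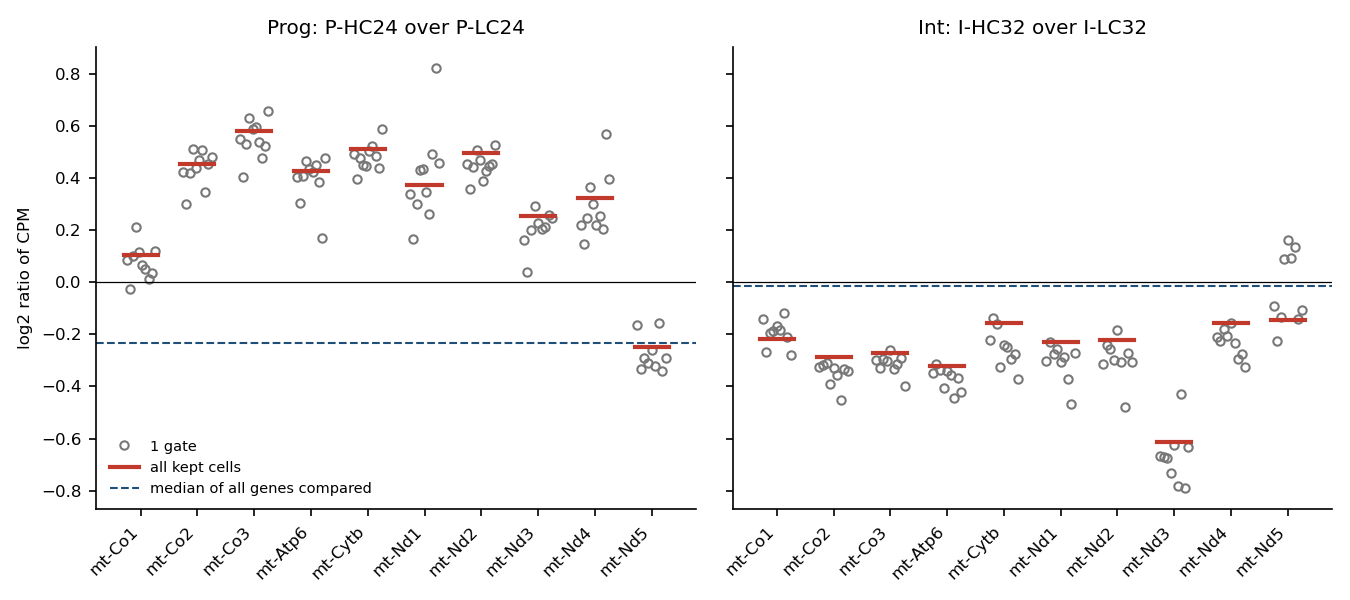
Log2 ratio of CPM for each of the 10 genes in Prog (left) and Int (right); red bars are all kept cells, open circles single gates where the gene was compared, and the dashed line is the median of all genes compared. In Prog mt-Co3 (0.58) and mt-Nd5 (-0.25) lie at opposite ends, and in Int mt-Nd3 (-0.61) lies below the others.

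The complex I genes did not move as a block. mt-Nd1 had 2079, 2689, 2619 and 2233 CPM. mt-Nd2 had 2198, 3095, 2703 and 2319 CPM, with the largest Prog ratio of the complex I genes, 0.49. mt-Nd4 had 2072, 2592, 2706 and 2430 CPM. All 3 were lowest in P-LC24, while the library with the highest level differed. mt-Nd3, the smallest of these subunits, had 819, 975, 697 and 456 CPM. It was at its lowest in I-HC32, 456 CPM against 697 CPM in I-LC32, a log2 ratio of -0.61 (-0.634 to -0.593) that ran from -0.79 to -0.43 over 9 gates. mt-Nd5, one of the pumping subunits at the far end of the membrane arm, had 677, 570, 594 and 538 CPM. It was highest in P-LC24, where mt-Nd1, mt-Nd2 and mt-Nd4 were lowest, and its Prog ratio was -0.25 (-0.272 to -0.226).

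The Int log2 ratio of mt-Nd5 was -0.22 (-0.255 to -0.194) in B-1-type B cells and 0.16 (0.0643 to 0.255) in CD8 T cells. In CD4 T cells it was 0.09 with an interval that spans 0 (-0.0649 to 0.242). These intervals cover counting error only, and with 1 library each a difference between gates was not tested.

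mt-Cytb, the haem-bearing core of complex III, had 3619, 5159, 4862 and 4365 CPM. Its Prog ratio was 0.51 and its Int ratio -0.16, the latter under 1.2-fold.

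The complex IV genes parted from each other. mt-Co1, which holds the site where oxygen is reduced, had 6492, 6978, 6959 and 5976 CPM, a Prog ratio of only 0.10 (0.0971 to 0.111). mt-Co2, which takes electrons from cytochrome c, had 5735, 7845, 7167 and 5867 CPM, a Prog ratio of 0.45. mt-Co3, a structural core subunit, had 6890, 10301, 10613 and 8794 CPM, a Prog ratio of 0.58 (0.574 to 0.587). P-LC24 was far below the other libraries in mt-Co3 but above I-HC32 in mt-Co1. As a result complex IV took nearly the same share of the 10 genes in the libraries, 49.95%, 49.71%, 50.76% and 50.53%, a difference of -0.24 percentage points in Prog and -0.23 in Int. The sign of these small differences was not fixed: in Prog it was 0.0241 with a limit of 5%, and in Int 0.33 with gates weighted alike and 0.58 against P-LC24.

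mt-Atp6, the part of ATP synthase that forms its proton path, had 7691, 10336, 9819 and 7866 CPM. Its ratios were 0.43 in Prog and -0.32 in Int, and its share of the 10 genes stayed between 19.3% and 20.5%.

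Per kilobase of gene, mt-Atp6 was highest in each library, at 11293, 15178, 14418 and 11551 CPM per kb. mt-Co3, mt-Co2, mt-Co1 and mt-Cytb followed in that order in the 4 libraries. mt-Nd5 came last, at 371, 312, 326 and 295 CPM per kb. mt-Nd3 had 2354 CPM per kb in P-LC24 and 1309 in I-HC32. The kit counts captured 3′ ends, which need not scale with gene length, so this order rests on the division by length. In CPM, mt-Co3 was above mt-Atp6 in I-LC32 and I-HC32, mt-Co1 was above mt-Co2 in P-LC24 and I-HC32, and mt-Nd3 was below mt-Nd5 in I-HC32 alone.

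The make-up of the 10 genes, the share of each among their UMIs, does not use the total of all UMIs and was read next. mt-Nd3 was 2.14%, 1.93%, 1.43% and 1.12% of their UMIs, with exact Clopper-Pearson 95% intervals of 2.12 to 2.16 in P-LC24 and 1.10 to 1.13 in I-HC32. It was highest in P-LC24 and lowest in I-HC32 in all 8 gates. mt-Co3 was 18.0% in P-LC24 and 20.4%, 21.8% and 21.5% in the others. mt-Nd5 was 1.77% in P-LC24 and 1.13%, 1.22% and 1.32% in the others. mt-Co1 was 17.0% in P-LC24 and 13.8%, 14.3% and 14.6% in the others. The ratio of mt-Co3 to mt-Co1 had a median over 8 gates of 1.06, 1.45, 1.53 and 1.36. Between the low cholesterol libraries alone, P-LC24 and I-LC32, this ratio therefore differed more than between I-LC32 and I-HC32.

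**Figure D3:**
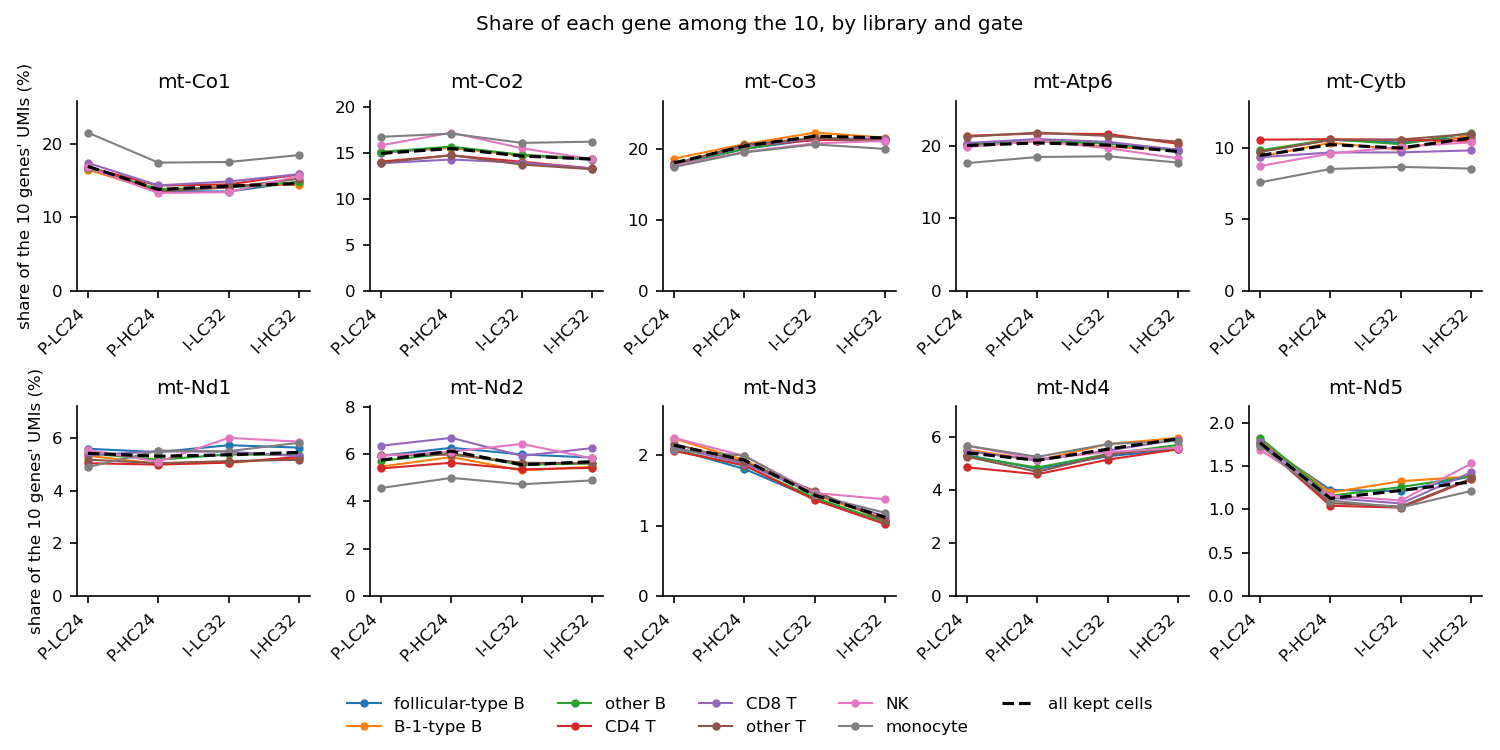
Share of each gene among the UMIs of the 10 genes, in percent, by library; each line is 1 of 8 gates and the dashed line is all kept cells. The lines of mt-Nd3 step down together from P-LC24 (2.14% over all cells) to I-HC32 (1.12%), while for mt-Co1 monocytes run above the other gates in each library.

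The spread of each gene's log2 share over 8 gates and 4 libraries was split into a part between libraries and a part between gates. The library part was 95.9% for mt-Nd3, 92.0% for mt-Co3, 89.3% for mt-Nd5 and 62.3% for mt-Nd4. The gate part was larger for mt-Nd2 (85.0%), mt-Atp6 (74.9%), mt-Cytb (73.1%) and mt-Co2 (70.8%). It was also larger for mt-Nd1, 50.6% against 12.1%, but 37.3% of the spread of that gene lay in neither part. For mt-Co1 they were about equal, 49.5% and 48.1%. The ribosomal protein genes gave a library part with a median of 57.3% and a 90th percentile of 88.3% over 79 genes when their shares were taken among themselves in the same way. The highest of them reached 94.9%. For 10 nuclear genes of complexes I to V, again among themselves, the median was 30.5% and the highest value 81.1%. For 318 non-mitochondrial genes in CPM, the median was 15.3%, the 90th percentile 47.4% and the highest value 87.3%. On the CPM scale the library part of mt-Nd3 was 71.1%, and those of the other 9 genes ran from 13.4% to 37.6%. In CPM, 61.3% of 318 non-mitochondrial genes were highest or lowest in the same library in all 8 gates. Of the 10 genes in CPM, 4 were highest in the same library in all gates, where 29.2% of the other genes were, and 4 were lowest, where 45.6% were.

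Cell types had make-ups of their own. Monocytes had more mt-Co1 and less mt-Cytb and mt-Nd2 than the mean of the 8 gates in each of the 4 libraries, with mean log2 differences of 0.28 ± 0.03, -0.25 ± 0.04 and -0.25 ± 0.04 (SD, n = 4 libraries). In P-LC24, mt-Co1 was 21.6% of the 10 genes in monocytes and 16.5% in B-1-type B cells. The values in I-HC32 were 18.5% and 14.5%. Neutrophils, which are not among the 8 gates, had a higher mt-Co1 share than monocytes where both were read. It was 26.9% against 21.6% in P-LC24 and 21.9% against 17.5% in P-HC24, from 539 and 548 mt-Co1 UMIs in neutrophils. CD8 T cells had more mt-Nd2 in the 4 libraries, by 0.15 ± 0.04, and less mt-Co2, by -0.10 ± 0.02. The lower mt-Co2 was shared by the other T cell gates in the 4 libraries, at -0.08 ± 0.01 in CD4 T and -0.09 ± 0.01 in other T. With 4 libraries an exact sign test cannot go below a two-sided p of 0.125, so these differences were not tested. In macrophages, present in sufficient number in 3 libraries, mt-Nd5 was 0.831% in I-LC32 against 0.937% in I-HC32 and 0.865% in P-HC24, below the value for all kept cells of the same library. Their mt-Nd1 was 6.89%, 6.21% and 5.98% in the same order, above it.

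**Figure D4:**
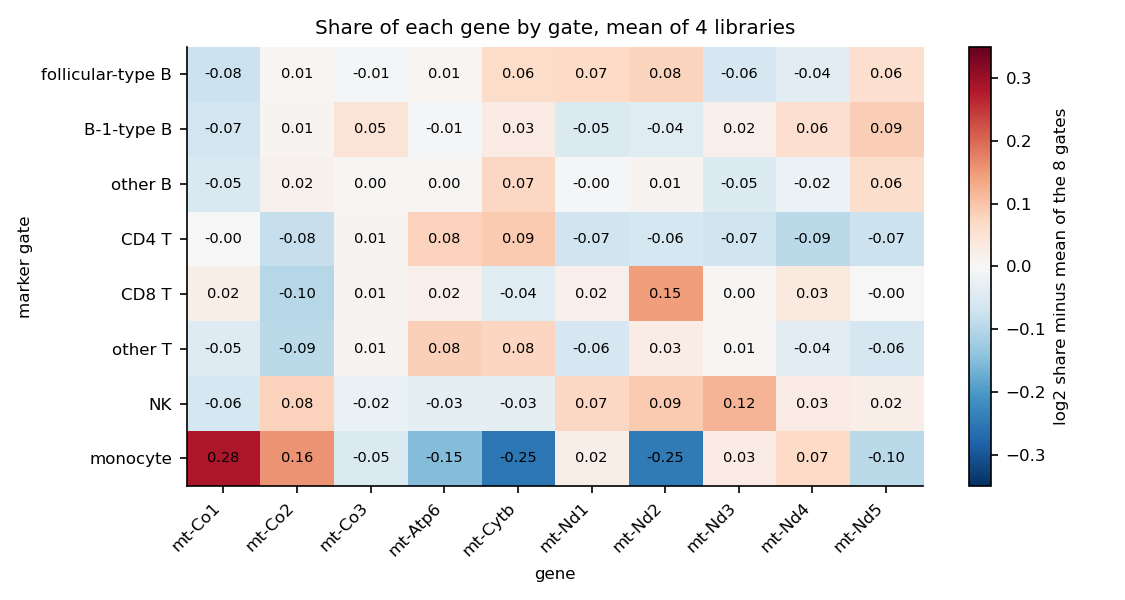
Log2 share of each gene among the 10 in each gate, minus the mean of the 8 gates of the same library, as the mean of 4 libraries (colour and printed value). Among these 8 gates, which leave out neutrophils, monocytes differ most, with mt-Co1 at 0.28 and mt-Cytb and mt-Nd2 at -0.25.

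Over all cells, the make-up also moved with the mitochondrial share of the cell. In P-LC24, mt-Co1 was 19.4% of the 10 genes in cells with up to 2.5% mitochondrial UMIs and 13.7% in barcodes above 20%. In I-HC32 it was 16.2% and 12.5%. mt-Co3 went the other way, from 17.6% to 19.3% in P-LC24 and from 21.3% to 22.9% in I-HC32. Barcodes above 20% held few UMIs, with a median of 1308 in P-LC24 and 1694 in I-HC32, and Malat1, a nuclear RNA, was at 32089 and 38342 CPM in them against 14453 and 10439 CPM at up to 2.5%. The bins hold different cell types, so single gates were read as well, and these moved less evenly. Over the bins from 2.5% to 10%, mt-Co1 in follicular-type B cells was 13.7%, 13.5% and 13.8% in P-HC24 and 15.1%, 14.4% and 13.5% in I-HC32. Over the bins up to 7.5%, mt-Co3 in P-LC24 was 16.6%, 17.5% and 18.6% in follicular-type B cells but 17.9%, 17.8% and 17.7% in CD8 T cells. In follicular-type B cells with 2.5% to 5% mitochondrial UMIs, mt-Nd3 was 2.10%, 1.77%, 1.38% and 1.05%, close to the values over all cells. At 7.5% to 10%, with 41 and 22 cells, it was 1.23% in I-LC32 and 1.32% in I-HC32, so the order of those libraries turned there. That bin held only 13526 and 7623 UMIs of the 10 genes. In B-1-type B cells of the same bin the order was kept, at 1.44% in I-LC32 and 1.01% in I-HC32.

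**Figure D5:**
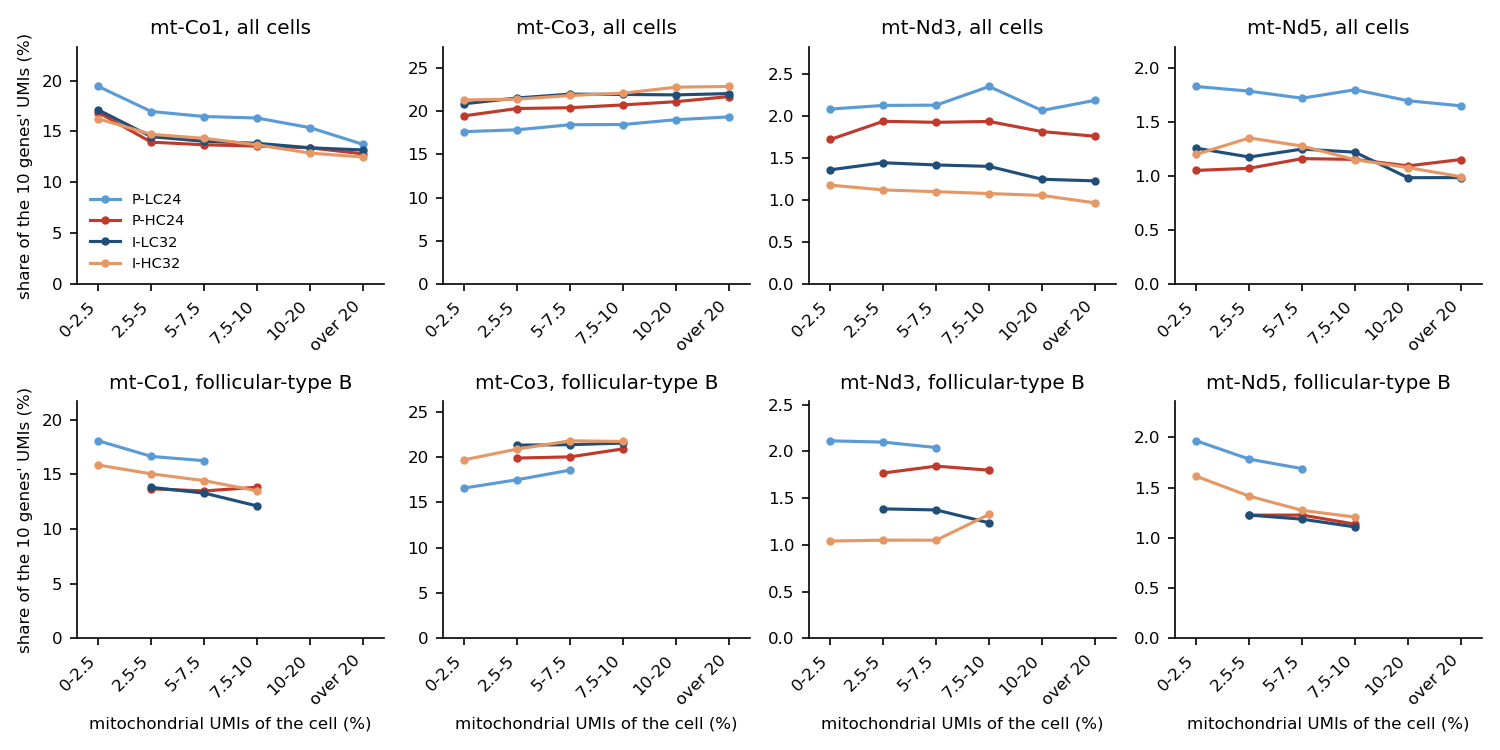
Shares of mt-Co1, mt-Co3, mt-Nd3 and mt-Nd5 among the 10 genes, in percent, by the mitochondrial share of the cell, for all cells (upper row) and follicular-type B cells (lower row); each line is 1 library, and barcodes above 10% are included. Over all cells mt-Co1 goes from 19.4% to 13.7% in P-LC24, and over all cells the 4 libraries keep their order in mt-Nd3, while in follicular-type B cells I-HC32 lies above I-LC32 at 7.5% to 10%.

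The other mitochondrial protein-coding genes, mt-Atp8, mt-Nd4l and mt-Nd6, summed to 505, 299, 242 and 204 CPM. All 3 were at least 1.2-fold lower in Prog, at -0.73, -0.68 and -1.14, as were 47.5% of all genes compared. mt-Atp8 overlaps mt-Atp6 and mt-Nd4l overlaps mt-Nd4, the next genes on the same strand. Those 2 partners were higher in Prog, at 0.43 and 0.32. Whether the counts of mt-Atp8, mt-Nd4l and mt-Nd6 follow the levels of their messages was not tested. In Int, 1 of 3 was lower (median -0.25), where 12.2% of all genes were. mt-Nd6, a complex I gene of the opposite strand, had 78.7, 35.7, 33.3 and 30.8 CPM. It was highest in P-LC24.

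Nuclear genes of the same complexes were counted in the same way, and in Prog 16.5% of all genes compared were at least 1.2-fold higher and 47.5% lower. Of 37 nuclear complex I genes, 23 were at least 1.2-fold higher and 2 lower, with a median log2 ratio of 0.35 beside -0.23 for all genes. Among them Ndufa13 had 193, 252, 218 and 208 CPM, and Ndufb1 had 279, 213, 163 and 118 CPM, highest in P-LC24. Complex III (5 of 9 higher, 0 lower), complex IV (5 of 11, 0 lower) and complex V (9 of 17, 0 lower) had medians of 0.28, 0.23 and 0.30. Cox4i1 of complex IV had 479, 636, 559 and 617 CPM. Complex II, which has no mitochondrial gene, had a median of 0.14 (1 of 4 higher, 0 lower). In Int, 0 nuclear genes of complexes I to V were at least 1.2-fold higher, and 1 of complex I, 1 of complex IV and 2 of complex V were lower, where 13.4% and 12.2% of all genes were. Their Int medians were 0.02, 0.15, -0.01, -0.02 and -0.03 for complexes I to V, beside -0.01 for all genes and -0.25 for the 10 mitochondrial genes together.

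The machinery that copies and translates mitochondrial genes was set beside all genes compared, of which 16.5% were at least 1.2-fold higher and 47.5% lower in Prog (median -0.23), and 13.4% higher and 12.2% lower in Int (median -0.01). Of 72 mitochondrial ribosomal protein genes compared, 32 were at least 1.2-fold higher in Prog and 3 lower (median 0.25), and in Int 7 of 76 were higher and 1 lower (median 0.03). Of 15 genes of mitochondrial transcription and RNA handling compared, 2 were higher and 6 lower in Prog (median -0.13), and the share that was lower was near that of all genes. In Int, 1 of 18 was higher and 2 were lower (median -0.07). Tfam, which packages and starts transcription of mitochondrial DNA, had 52.8, 47.2, 48.4 and 39.7 CPM and the lowest Int ratio of that list, -0.29. Polg, the polymerase that copies mitochondrial DNA, had the highest, 0.41, with 14.7, 13.5, 13.1 and 17.3 CPM. Of 5 regulators of mitochondrial biogenesis, 3 were lower in Prog (median -0.38), among them Nrf1 with 90.2, 60.5, 88.7 and 79.3 CPM. In Int 0 of 6 passed in either direction. Of the chaperone, protease and stress genes, 0 of 7 passed in Prog, and 2 of 9 were higher in Int, with Hspd1 at 97.4, 93.0, 99.0 and 153 CPM. Of the mitophagy genes, 2 of 6 were higher in Prog, with Phb2 at 0.63.

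Signs of cell state and of other cells moved with the libraries as well, and their part in the levels was not tested. Malat1 had 15530, 9942, 13373 and 13159 CPM, a Prog ratio of -0.64. Neat1, the other nuclear RNA listed, went the other way in Prog. It had 156, 219, 175 and 277 CPM, with ratios of 0.49 in Prog and 0.67 in Int. Of 10 dissociation and immediate early genes, 8 passed upwards in Prog and 8 in Int, and 0 downwards, with medians of 0.42 and 0.61, beside 16.5% and 13.4% of all genes higher and medians of -0.23 and -0.01. Ier3 went from 35.9 to 173 CPM in Prog and from 65.4 to 292 in Int. The 4 haemoglobin genes, of red blood cells, summed to 17358, 10201, 16434 and 3498 CPM, with Hbb-bs the most abundant and none at 0. The 7 hepatocyte genes summed to 67.9, 13.4, 3.39 and 14.6 CPM, and 0 of them could be compared. The 8 macrophage markers summed to 386, 2306, 449 and 2719 CPM, lower in both low cholesterol libraries.

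Genes whose pattern was most like that of the 10 were sought over 40 points of 11 gates and 4 libraries, with levels taken per UMI not from mitochondrial genes and centred within a gate. Of 211 genes with at least 100 UMIs in each point, the highest Pearson r was that of Rpl32 (0.83), followed by Ptpn18 (0.83), Rps19 (0.82), Rps18 (0.81) and Rps13 (0.78), with a median r of 0.25. The lowest r was that of Ssh2 (-0.81), followed by Malat1 (-0.75), Arhgap15 (-0.69), Ncor1 (-0.65) and Ptprc (-0.65). The points share libraries and their depth, so these are a description only.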

How the data were processed

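Unnormalised UMI counts for each gene in each barcode were deposited by the authors, who made them with Cell Ranger 9.0.1 on GRCm39 from 10x 3′ libraries. The values were whole numbers, and barcodes outside the study's filters were present. Its SoupX correction was not applied here. Genes and cells were filtered at the study's limits: a UMI in at least 3 cells per gene, at least 500 UMIs and 300 genes and at most 10% mitochondrial UMIs per cell. The study's doublet step was replaced by Scrublet in scanpy 1.11.5, and the highest scores, 0.8% per 1000 cells, were removed. Gates needed UMIs of at least 2 markers of a lineage and 75% of all marker UMIs, and were read with at least 50 cells. A gene entered a ratio if 10% of cells or more had it in 1 of the 2 libraries and the pair summed to 100 UMIs or more. Summed UMIs gave CPM, and log2 ratios are high over low cholesterol diet history. Software was pandas 2.3.3, numpy 2.4.6, matplotlib 3.10.9 and scipy 1.17.1 under Python 3.11.15. The code of the intervals was checked on simulated Poisson and binomial counts, which hold no variation between cells, mice or libraries.

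No test was made, because each condition had 1 library and cells are not replicates. The members and gene lists were chosen with earlier results of these data known. Named genes were the 10 members, the most abundant gene of each list with those of the highest and lowest ratio, and the 5 genes most like and 5 most unlike the 10 summed. Not all genes picked by that rule are described. Alternatives changed the mitochondrial limit, doublets, denominator, weight of cells, depth, gates, fold, low-count filter and free RNA, and 6 that exchange the low cholesterol library were added after the data were seen.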

Additional observations from a re-analysis of the deposited data

Results flagged for a closer look

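In 3 genes the same contrast, high over low cholesterol diet history, went in opposite directions by at least 1.2-fold at week 24 and week 32. All 3 were higher in Prog and lower in Int, as were 0.300% of 7005 genes compared in both, while 1.21% went the other way. The 10 genes were chosen knowing these contrasts, so nothing is read from that count. The log2 ratio of mt-Co2 was 0.45 in Prog and -0.29 in Int. That of mt-Co3 was 0.58 in Prog and -0.27 in Int, and that of mt-Atp6 was 0.43 in Prog and -0.32 in Int. With a mitochondrial limit of 20%, the Int ratios of mt-Co2 and mt-Co3 were -0.24 and -0.21, under 1.2-fold, and that of mt-Atp6 was -0.27. The directions also depended on the low cholesterol library. mt-Co3 had 10301 CPM in P-HC24 against 10613 CPM in I-LC32, and 8794 CPM in I-HC32 against 6890 CPM in P-LC24, so both its directions turned. For mt-Co2 and mt-Atp6 P-HC24 was above both low libraries, while I-HC32, with 5867 and 7866 CPM, was above P-LC24, with 5735 and 7691 CPM. With 1 library per condition, the difference between the weeks was not tested. These are also the 3 of the 10 genes with an identical nuclear copy over their whole length on chromosome 1. The part of that copy in the counts was not tested, and the set of 3 rests on the 1.2-fold limit. mt-Nd3, identical over 99.1% of its length, had 0.25 in Prog and -0.61 in Int. Of the genes without such a copy, mt-Cytb (0.51 and -0.16), mt-Nd2 (0.49 and -0.22) and mt-Nd1 (0.37 and -0.23) had the same directions. mt-Nd5, also without a copy, was lower in both (-0.25 and -0.14).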

How the results depend on the processing

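With 1 library per condition, intervals cover counting error only, and depth did not limit the summed values. Over all kept cells the sum of the 10 genes kept its direction under the alternatives except 1: with P-LC24 as the low cholesterol library, chosen after the data were seen, the Int log2 ratio reversed from -0.25 to 0.0939. The cause was not tested. In Prog the ratio, 0.40 as reported, was 0.39 with a 20% limit, 0.19 with a 5% limit, 0.41 with no limit, 0.42 over UMIs not from mitochondrial genes, 0.42 with every cell weighted alike, 0.37 with gates weighted alike and 0.0524 with I-LC32 as the low library. In Int it was -0.20, -0.0851, -0.17, -0.27, -0.21 and -0.30 under the first 6 of these. A 5% limit cuts through the distribution of cells itself. The count of genes at least 1.2-fold higher in Prog, 7, was 3 with the 5% limit, 0 at 1.5-fold and 1 with I-LC32, while it was 8 over UMIs not from mitochondrial genes and 6 with gates weighted alike. The count lower in Int, 4, was 2 with the 20% limit, 1 with the 5% limit, 1 with no limit, 2 with cells weighted alike, 1 at 1.5-fold and 2 with P-LC24, but 6 with gates weighted alike. The complex IV difference in Prog, -0.24 percentage points, was 0.0241 with the 5% limit, -0.0809 with cells weighted alike and -1.05 with I-LC32. In Int, -0.23, it was -3.27e-05 with cells weighted alike, 0.33 with gates weighted alike and 0.58 with P-LC24, so its direction is not fixed. In single gates, 60 alternative values in Prog ran from 0.04 (no doublet removal) to 1.46 (10% free RNA subtracted), both in neutrophils, which hold few of these UMIs, and 54 in Int from -0.45 to -0.21. No paired analysis was possible because each condition has 1 library and no test was made.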
